A study of Homo sapiens with 6 samples.

Results

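The response of H460 cells to MALAT1 siRNA was read from 1 control library and 1 si-MALAT1 library, which are 2 of the 6 libraries of the series. H460 is an established human large cell lung carcinoma line. The remaining libraries are the same pair from H1299 and A549, other lines of non-small cell lung cancer (NSCLC). The sample labels give the control cells as "non" treated tumor cells and the other cells as MALAT1 knockdown by siMALAT1 transfection, while the methods mention negative controls as well as a control siRNA, so whether the sequenced control received an siRNA is not settled by the sources used here. The time between transfection and RNA extraction and the siRNA sequence were also not found in them. The comparison took in every gene with a mean scaled count of at least 10 over the H460 pair, which kept 18443 of the 46427 genes in the table. Each fold change is given on the log2 scale as si-MALAT1 minus control, after scaling for depth and adding 1. With 1 library on each side there was no replicate check and no test. The interval beside a value comes from the split of the gene's reads between both libraries (exact Clopper-Pearson, 95%), and it covers counting error only, not the variation between cultures or library preparations. A gene is called higher or lower where it differed by at least 1.5-fold, which is 0.58 on the log2 scale, and firmly higher or lower where the whole interval lay past 1.5-fold.

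MALAT1 is an abundant nuclear lncRNA found in and around nuclear speckles, the bodies where splicing factors are stored, and it is often raised in lung tumours. An siRNA is a short double-stranded RNA that loads into Argonaute and directs the cutting of RNAs with full complementarity to its guide strand. Guide strands can also lower mRNAs whose 3′ UTR pairs with the guide's seed, in the way a microRNA does. A library from transfected cells can therefore hold changes that follow the loss of the target, changes that follow the seed, and changes that follow the transfection, and these libraries cannot tell them apart.

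The H460 libraries held 68515992 reads in the control and 65067040 after si-MALAT1, and the 6 libraries ranged from 42506818 to 68515992. The epithelial keratins KRT8 (32680 and 26580 reads, in that order) and KRT18 (29912 and 20233) were abundant in both. EPCAM (30 and 73 reads) and CDH1 (13 and 11), defining markers of many epithelial cells, were near 0. The lung lineage markers NKX2-1 and SFTPB and the markers PTPRC and CD3E of blood cells, PECAM1 and CDH5 of endothelium, and COL1A2 of fibroblasts were listed at 0 reads in both. Other markers of the same classes were read, among them COL3A1 (4961 and 4300 reads), PDGFRB (837 and 708) and COL1A1 (175 and 472) of fibroblasts and CD68 (1717 and 1109) of myeloid cells, while the lung genes NAPSA (12 and 24) and SFTPC (0 and 6) were near 0. The part of other cell types in the results was not tested. In these bulk samples a smaller share of cells expressing a gene and less RNA per cell cannot be told apart.

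MALAT1 (Gene ID 378938) occupies chromosome 11, positions 65497738 to 65506516, on the plus strand of GRCh38. It had 231045 reads in the H460 control and 43858 in the si-MALAT1 library, a log2 fold change of -2.32 (interval -2.33 to -2.30). On the deposited scale that corrects for length, its level was 452 TPM in the control and 82.5 TPM after si-MALAT1. The library labelled as the knockdown thus had fewer MALAT1 reads, and the fold change was smaller in size than the -2.96 of H1299 and the -2.84 of A549. TALAM1, the antisense transcript of the locus, had 1949 and 412 reads, a log2 fold change of -2.16 (-2.32 to -2.01), and it shares exon positions with MALAT1, so reads of either strand could be counted to both. NEAT1, the neighbouring lncRNA that scaffolds paraspeckles, had 45375 and 24742 reads, a log2 fold change of -0.79 (-0.82 to -0.77). NEAT1 took the opposite direction in the deposited TPM, with 45.1 in the control and 57.3 after si-MALAT1, so no direction is drawn for it.

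Across the 18443 genes the median log2 fold change was 0.015, and the middle 50% lay between -0.254 and 0.268. At 1.5-fold, 1911 genes (10.4%) had more scaled reads in the si-MALAT1 library and 1913 (10.4%) had fewer. With log2(TPM + 1) in place of scaled counts the split was 258 higher and 831 lower. At a log2 fold change of 1.5, 334 genes (1.81%) were higher and 306 (1.66%) lower. The interval lay wholly past 1.5-fold for 690 genes higher (3.74%) and 713 lower (3.87%). In H1299, 2501 of 19056 genes (13.1%) were higher and 2128 (11.2%) lower at 1.5-fold, and in A549 2398 of 18499 genes (13.0%) were higher and 2171 (11.7%) lower. These percentages are the background for every list below. Large changes in H460 were mostly those of weakly expressed genes. Among the 3674 genes with a mean scaled count of 10 to 50, 25.9% were higher and 25.2% lower, against 2.42% and 5.06% of the 2274 genes with a mean of 5000 or more.

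**Figure D1:**
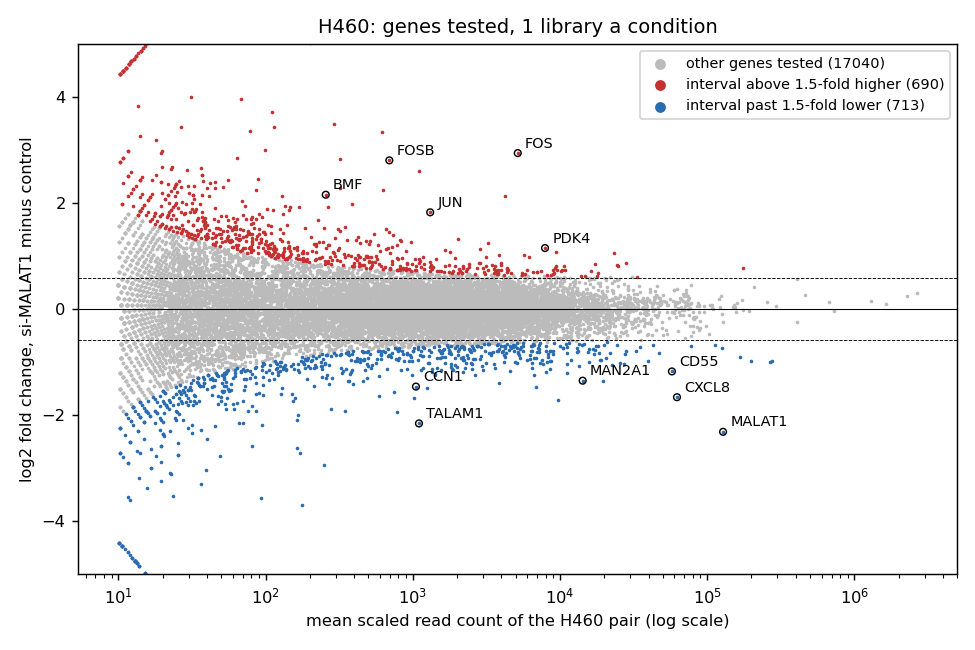
Log2 fold change of each gene in H460 (vertical axis, si-MALAT1 minus control) against its mean scaled count in the pair (horizontal axis, log scale). Red points are the 690 genes whose interval lies wholly above 1.5-fold, blue points the 713 wholly below, and grey points the rest, while 33 genes lie outside the axis range of 5 either way. The spread narrows with rising count, and FOS above and MALAT1 and CXCL8 below stand out among well-read genes.

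The genes with the most extreme intervals were largely ones whose reads can be moved between overlapping gene models. ATP6V1G2-DDX39B, a readthrough model that joins neighbouring genes, had 21 and 1215 reads, a log2 fold change of 5.87. CDRT4 had 745 reads in the control and 6 after si-MALAT1, while TVP23C-CDRT4, the readthrough model over it, had 51 and 551. These moved in opposite directions over shared exons, so neither is read as a change of the gene. Exon bases were shared with another gene model by 33.3% of the genes measured, among them, of the genes described below, IL6, LIF, TNFAIP3, FOSL2, LAMA5, KIF20A, TP53INP1, MVK, SRRM2, DICER1, MCL1, BCAT1 and NAP1L5. Readthrough models made up 0.699% of the genes measured, 4.49% of those higher and 6.21% of those lower at a log2 fold change of 1.5. HLA-G, an MHC class I gene with near-identical relatives whose reads can be split, had 745 reads in the control and 0 after si-MALAT1, at least 235-fold lower against a floor of 3 counts in the library at 0. CD302, a C-type lectin receptor, had 0 and 251 reads, at least 88.5-fold higher on the same floor, but it shares exons with the readthrough model LY75-CD302 and with MARCHF7. The readthrough models C8orf44-SGK3 (161 and 0 reads) and ARPIN-AP3S2 (139 and 0) were in the same class. The remaining genes that the naming rule picked and that were at 0 in 1 library had 29 to 62 reads in the other where higher, as with ESAM (35 reads) and DYNC1I1 (32), and 33 to 119 where lower, as with the mineralocorticoid receptor NR3C2 (39) and DOCK8 (44).

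Among the 7273 protein-coding genes with a mean scaled count of at least 200 and no exon shared with another gene, a set defined after the values were seen, 156 were firmly higher and 212 firmly lower. FOS and FOSB, subunits of the AP-1 transcription factor, headed the higher genes. FOS had 1287 reads in the control and 9352 after si-MALAT1, which is 2.94 on the log2 scale (2.86 to 3.03), beside 2.58 in H1299 and 1.12 in A549. FOSB had 187 and 1241 reads, a log2 fold change of 2.81 (2.59 to 3.04). BMF, a BH3-only protein that favours apoptosis, had 101 and 429 reads, a log2 fold change of 2.16 (1.85 to 2.50). The adhesion protein gene FLRT3 went from 119 to 428 reads and the phosphatase gene DUSP2 from 320 to 810. PDK4, a kinase that holds pyruvate dehydrogenase inactive, had 5321 and 11163 reads, a log2 fold change of 1.15 (1.10 to 1.20). In all of these but DUSP2 the H460 libraries differed in the same direction as both other lines. DUSP2 had few reads there, 44 and 47 in H1299 (interval -0.40 to 0.85) and 4 and 21 in A549.

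The firmly lower genes of that set were led, after HLA-G, by CXCL8, the neutrophil chemokine interleukin-8. It had 102547 reads in the control and 30603 after si-MALAT1, which is -1.66 on the log2 scale (-1.68 to -1.65), and its level went from 1049 to 290 TPM. In H1299 CXCL8 was hardly read, with 29 and 26 reads and an interval of -0.85 to 0.79, so no comparison is drawn there, and in A549 it had 1815 and 1297 reads (-0.63). CDCP1, a transmembrane glycoprotein, had 1207 and 385 reads, a log2 fold change of -1.56 (-1.74 to -1.40), where H1299 had 0.64 and A549 -0.88. CD55, which protects cells from complement, had 86433 and 36129 reads, a log2 fold change of -1.18 (-1.20 to -1.16). Golgi mannosidase MAN2A1 had 22180 and 8215 reads (-1.35), GOLM2 10085 and 4013 (-1.25), and the pentose phosphate enzyme TALDO1 16971 and 6932 (-1.21). The last 3 were lower by more than 0.58 in each of the 3 lines, with TALDO1 at -1.48 in H1299 and -2.05 in A549. UNC5B, a netrin receptor, had 2150 and 858 reads in H460 (-1.24). It was hardly read in H1299 (4 and 7 reads) and A549 (14 and 23), so no comparison is drawn there.

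The 3′ UTRs of several lower genes shared a short word. The words TGAATCA and ATGAATC, which overlap in the 8-base word ATGAATCA, were singled out in earlier work on these same libraries, so their values here are a description. Both were searched on the mRNA strand of canonical 3′ UTRs. For MALAT1, a noncoding RNA with no 3′ UTR, the whole canonical GENCODE transcript of 10434 bases was searched, and it held 1 site. That transcript is a longer model than the one whose positions are given above. Whether 1 site is more than its length would give was not tested. The sites below are shown because they lie in MALAT1 itself and in well-read genes that were lower in H460, with bases of either word in capitals, 5′ to 3′ on the transcript strand.
MALAT1, chr11:65500927-65500954: gcttatactcATGAATCttgtctgaagc
CXCL8, chr4:73743167-73743194: aaaatagaagATGAATCAttgattgaat
MAN2A1, chr5:109867609-109867636: atacctgatttTGAATCAttcaacagta
PPP1CA, chr11:67398372-67398399, minus strand: tctttttttaATGAATCAatagcagcgt
TALDO1, chr11:764905-764932: gtggcttctgATGAATCttgcgtttttt
CIAO2B, chr16:66932109-66932136, minus strand: cgttgttttctTGAATCActcacaatga
PGAM1, chr10:97433320-97433347: tcactgatttcTGAATCAtgttctagtt
NOL6, site 1, chr9:33462556-33462583, minus strand: ctccttggacATGAATCctccatggagg
NOL6, site 2, chr9:33462520-33462547, minus strand: gctgaacatgcTGAATCAtctccaacaa
GOLM2, site 1, chr15:44414572-44414599: ctactttgaaATGAATCtgcaatcagta
GOLM2, site 2, chr15:44414751-44414778: ttgtaaaaaaATGAATCtttgtaattac
GOLM2, site 3, chr15:44415311-44415338: gggtagggagATGAATCAaaaaataccc

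Of 13521 genes with a 3′ UTR to search, 2392 held at least 1 site. Their median log2 fold change in H460 was -0.109, against 0.05 for the 11129 genes without one. The other lines had a gap in the same direction, at -0.031 against 0.06 in H1299 and -0.13 against 0.032 in A549. In H460 the median went down with the number of sites, from -0.097 with 1 to -0.125 with 2 and -0.274 with 3 or more. Of the 135 genes with 3 or more sites, 25.2% were lower at 1.5-fold and 1 gene was higher. The 516 genes with the 8-base word had a median of -0.168, and 17.2% of them were lower. The gap between genes with and without a site was present among both shorter and longer 3′ UTRs, at -0.158 against 0.049 and at -0.098 against 0.051. Protein-coding genes without a site and with a mean of at least 1000 also had a lower median at longer exon lengths. It was 0.185 under 1500 bases and -0.036 at 8000 or more. The part of length in the trend with the number of sites was not tested. Among genes with a mean scaled count of at least 1000, 114 of the 223 firmly lower genes held a site (51.1%), as did 8 of the 112 firmly higher genes (7.14%) and 1556 of all 7889 (19.7%). Among the genes printed above, PPP1CA, a catalytic subunit of protein phosphatase 1 whose exons overlap RAD9A, had 6081 and 2181 reads (-1.40) and PGAM1, a glycolytic mutase, had 19816 and 8896 (-1.07). CIAO2B, which acts in iron-sulfur cluster assembly, had 4020 and 1597 reads (-1.25), and NOL6, a nucleolar protein, had 1701 and 723 (-1.15). Whether the siRNA carries the complement of the word was not tested, because its sequence is not in the sources used here.

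**Figure D2:**
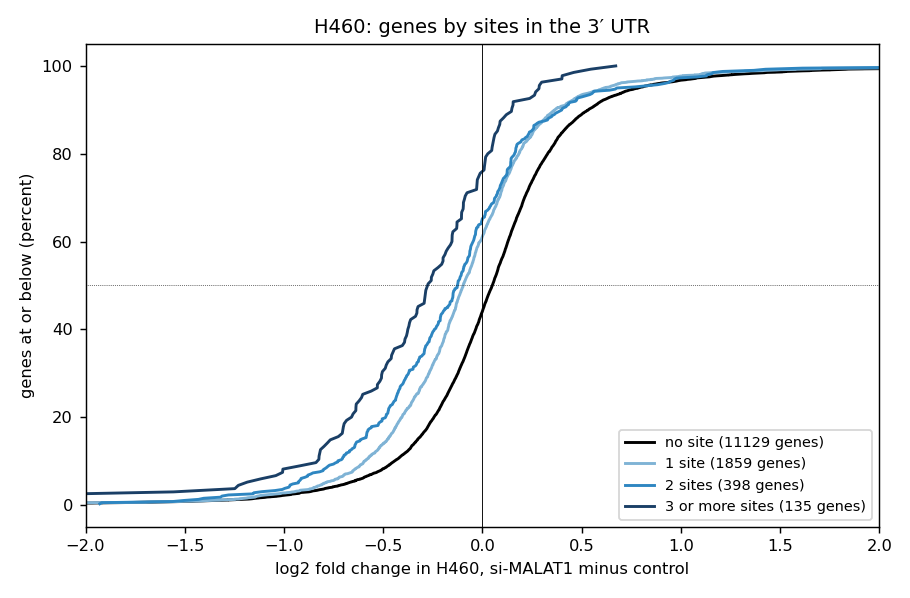
Cumulative percentage of genes (vertical axis) at or below each log2 fold change in H460 (horizontal axis), by the number of sites in the 3′ UTR: 0 (11129 genes), 1 (1859), 2 (398) and 3 or more (135). The curves lie farther to the left with more sites, and the medians are 0.05, -0.097, -0.125 and -0.274.

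Chemokine, cytokine and NF-kB genes were lower in H460 more often than all genes. NF-kB is a transcription factor that drives inflammatory genes, and in epithelial tumour cells its targets include chemokines that draw in neutrophils and monocytes. Of 28 genes listed, 23 were measured, 12 of these were lower, 10 of them firmly, and 0 were higher, where 10.4% of all genes were lower. The list's median was -0.60, beside -0.03 in H1299 and -0.32 in A549. The H1299 median covers 19 members and includes genes hardly read there, such as CXCL8 with 29 and 26 reads. No absence of a change in H1299 is read from it. After CXCL8, the secreted ligands in H460 were led by CXCL1, with 36844 and 17134 reads (-1.02). IL6, the interleukin-6 gene, had 10875 and 5250 reads (-0.97), CXCL2 3200 and 1549 (-0.96) and IL1A, interleukin-1 alpha, 1362 and 649 (-0.99). LIF, a cytokine of the interleukin-6 family, had 11968 and 7283 reads (-0.64). CCL5 had few reads, 38 in the control and 6 after si-MALAT1. Among the receptors, regulators and adhesion genes, ICAM1 had 1562 and 758 reads (-0.96), the apoptosis inhibitor BIRC3 2690 and 1196 (-1.09), and the NF-kB subunit NFKB2 7200 and 3395, firmly lower. The inhibitors of the pathway did not move alike. NFKBIA had 5502 and 5195 reads and TNFAIP3 24900 and 18127 (-0.38), neither past 1.5-fold. CXCL5 had 13986 and 12322 (-0.10). Only CXCL8 and LIF of the 12 lower members held a 3′ UTR site, and the median of the 20 members without one was -0.56.

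Sequence just before the start of some of these genes is printed because the list shares a motif there. The motif searched for NF-kB was GGANTTTCC, on both strands and in 300 bases around the start (250 before and 50 after), from RefSeq on GRCh38.p14. It was in 11 of the 17 list members with a promoter in the table (64.7%) and in 6 of the 9 lower ones, against 1.64% of all 27305 promoters. Capitals mark it and, for CXCL8, also a match to the AP-1 motif TGANTCA.
CXCL8, chr4:73740419-73740568: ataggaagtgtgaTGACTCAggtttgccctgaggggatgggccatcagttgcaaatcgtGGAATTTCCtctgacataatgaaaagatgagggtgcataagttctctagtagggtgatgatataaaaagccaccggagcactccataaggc
CXCL1, chr4:73869273-73869392: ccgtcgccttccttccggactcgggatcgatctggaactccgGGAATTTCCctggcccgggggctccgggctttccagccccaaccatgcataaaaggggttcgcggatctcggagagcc
IL6, chr7:22727080-22727199: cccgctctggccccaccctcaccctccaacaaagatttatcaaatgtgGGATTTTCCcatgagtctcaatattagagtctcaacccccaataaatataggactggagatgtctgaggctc
A match is a description of these letters, not a measured binding site. The share was about the same in the whole list and in its lower members. The list was made of chemokine, cytokine and NF-kB genes, so a high share of the motif describes the list and is no result about H460.

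**Figure D3:**
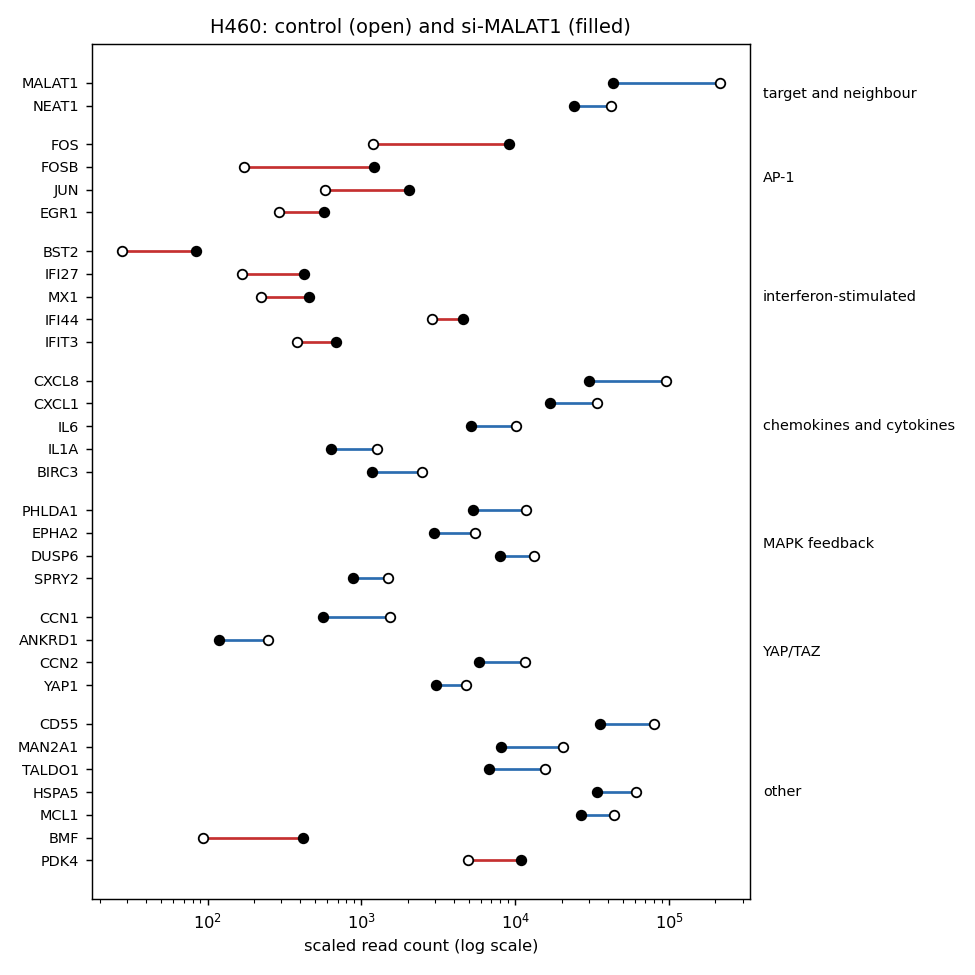
Scaled read counts (log axis) of genes described in the text in the H460 control (open circles) and the H460 si-MALAT1 library (filled circles), with 1 library for each condition and so no error bar. FOS, FOSB and BMF lie to the right after si-MALAT1, and CXCL8, CXCL1, IL6 and CCN1 to the left, while NEAT1, to the left here, went the other way in TPM.

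MAPK feedback genes, which are switched on by RAS-ERK signalling and mostly dampen it, were lower in H460 more often than all genes. Of the 17 members measured, 10 were lower, 9 of them firmly, and 2 were higher, with a median of -0.62 beside 0.24 in H1299 and -0.30 in A549. PHLDA1 had 12678 and 5447 reads, a log2 fold change of -1.14 (-1.18 to -1.09). The dual-specificity phosphatases DUSP6 (14244 and 8135 reads, -0.73) and DUSP4 (27316 and 16800, -0.62), which act on MAP kinases, and the ERK-responsive factor ETV4 (9548 and 5441, -0.73) were lower too. SPRY2 (1608 and 907, -0.74) and SPRY4 (1375 and 752, -0.79), inhibitors of receptor tyrosine kinase signalling, and the receptor EPHA2 (5951 and 3009, -0.90) followed. Cyclin D1, CCND1, went the other way with 3596 and 5492 reads (0.69), as did SPRY1 with 42 and 79. With log2(TPM + 1), 10 members were lower and 0 higher. DUSP2, a dual-specificity phosphatase outside the list, was firmly higher (320 and 810 reads, 1.42). A 3′ UTR site was found in 5 of the 10 lower members, DUSP4, DUSP6, ETV4, SPRY2 and SPRY4, and the median of the 11 members without a site was -0.51. ETV4 shares exon bases with DHX8 and SPRY4 with SPRY4-IT1.

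YAP and TAZ are co-activators of the Hippo pathway that respond to cell density and stiffness. Among 22 of their targets and partners, 8 were lower, 7 of them firmly, and 1 was higher, with a median of -0.40 beside -0.05 in H1299 and -0.49 in A549. The matricellular proteins CCN1 (1670 and 572 reads, -1.46) and CCN2 (12512 and 5961, -0.99), standard readouts of the pathway, were both firmly lower. ANKRD1, another target, had 267 and 122 reads, a log2 fold change of -1.04 (-1.37 to -0.73), beside -3.51 in A549. The co-activators themselves were lower, YAP1 with 5152 and 3121 reads (-0.64) and WWTR1, which encodes TAZ, with 6201 and 3418 (-0.78). NT5E, which makes adenosine, had 3121 and 1518 reads (-0.96) where H1299 had 0.50 and A549 0.56. Of the lower members, YAP1 alone held a 3′ UTR site. Integrin, collagen and laminin genes had 5 lower and 1 higher of 23. Among the lower were ITGAV (28939 and 14378 reads, -0.93), which held a 3′ UTR site, ITGA3 (3104 and 1558, -0.91) and LAMA5 (38245 and 20876, -0.79). The higher gene was COL1A1 (175 and 472, 1.51).

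Immediate early genes encode factors made within minutes of a stimulus, and they split in H460. Of 19 measured, 4 were higher, all firmly, and 4 lower, 3 firmly, with a median of -0.30. JUN, the AP-1 partner of FOS, had 625 and 2095 reads, a log2 fold change of 1.82 (1.70 to 1.96), and EGR1, a zinc finger factor, had 313 and 585 (0.98). FOS, FOSB, JUN and EGR1 were also above 0.58 in H1299 and A549. MAFF, a small MAF protein, had 620 and 219 reads (-1.42) and FOSL2, a FOS relative, 5638 and 3076 (-0.79), and ATF3 had 574 and 536 (-0.02). FOSL2 was the 1 lower member with a 3′ UTR site, and 1 of the 4 higher members held one.

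Interferon-stimulated genes, which encode antiviral proteins, had a median above 0 in H460 and below 0 in H1299 and A549. Of 39 measured in H460, 12 were higher, 8 of them firmly, and 1 was lower, with a median of 0.37 beside -0.69 in H1299 and -1.25 in A549. The H460 read counts were low: IFI27 had 181 in the control and 436 after si-MALAT1, which is 1.34 on the log2 scale (1.10 to 1.61). MX1, a GTPase against RNA viruses, had 242 and 470 reads (1.04), OASL 92 and 181 (1.05) and BST2, the tether of budding virions, 30 and 86 (1.57). IFI44 was the best read of the higher members with 3118 and 4671 (0.66), and IFIT3 had 414 and 697 (0.83). In A549 the same genes were lower, with IFI27 at -4.09, MX1 at -3.06 and IFI44 at -3.26. USP18, which removes ISG15 from proteins and holds back the receptor, was the lower member with 814 and 400 reads (-0.94), and it held a 3′ UTR site. ISG15, a ubiquitin-like modifier, had 321 and 392 reads (0.37). With log2(TPM + 1), 3 members were higher instead of 12.

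Promoters of 3 higher members are shown for the interferon motif ISRE, searched on both strands as GAAA, any 2 bases and GAAA again, with matches in capitals. It was in 19 of the 29 list members with a promoter in the table (65.5%), in 6 of the 9 higher ones and in 3.65% of all promoters.
IFI27, chr14:94110536-94110735: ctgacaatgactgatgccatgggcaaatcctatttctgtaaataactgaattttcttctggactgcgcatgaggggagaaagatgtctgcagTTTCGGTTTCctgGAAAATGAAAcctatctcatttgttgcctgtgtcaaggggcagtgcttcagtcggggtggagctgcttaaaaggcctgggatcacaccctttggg
IFIT3, chr10:89327847-89327996: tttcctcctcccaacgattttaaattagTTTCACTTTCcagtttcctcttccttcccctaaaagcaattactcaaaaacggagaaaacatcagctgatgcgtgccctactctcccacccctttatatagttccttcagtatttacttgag
BST2, chr19:17405631-17405830, minus strand, with 2 overlapping matches: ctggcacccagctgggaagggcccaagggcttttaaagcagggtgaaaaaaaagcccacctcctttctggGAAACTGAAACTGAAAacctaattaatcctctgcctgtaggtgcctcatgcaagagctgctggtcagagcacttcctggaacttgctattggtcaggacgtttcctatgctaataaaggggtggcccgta
As with NF-kB, the share in the whole list and in its members that moved was about the same, and it describes the list.

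The unfolded protein response of the endoplasmic reticulum makes chaperones when proteins misfold there. Of 24 genes measured, 3 were lower, 2 of them firmly, and 0 higher, where 10.4% of all genes were lower. Below 0 were 19 of the 24, against 8917 of all 18443 genes. The list's median was -0.27 beside 0.08 in H1299 and 0.03 in A549. HSPA5, the chaperone BiP, had 65373 and 34688 reads, a log2 fold change of -0.83 (-0.85 to -0.81), where H1299 had 0.48 and A549 0.24. EDEM1, which steers misfolded glycoproteins to degradation, had 4567 and 2145 reads (-1.01). XBP1, a factor of the response, had 10707 and 6998 (-0.53) and DNAJB9 714 and 969 (0.52), both within 1.5-fold. With log2(TPM + 1) 5 members were lower. The HSPA5 promoter holds the endoplasmic reticulum stress element, searched on both strands as CCAAT, any 9 bases and CCACG and shown in capitals. The element was in 6 of 22 list members with a promoter (27.3%) and in 0.0806% of all promoters, a share that describes the list. Of the 3 lower members, HSPA5 alone held it.
HSPA5, chr9:125241344-125241463, minus strand: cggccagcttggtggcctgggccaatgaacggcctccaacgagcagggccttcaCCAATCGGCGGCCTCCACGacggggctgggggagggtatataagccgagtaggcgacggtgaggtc
The amino acid response driven by ATF4, a neighbouring stress pathway, had 1 higher member and 0 lower of 30, but 0 and 4 with log2(TPM + 1), and its median was -0.15.

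DNA replication and mitosis genes were mostly above 0 in H460, with few past 1.5-fold. Of 40 DNA replication and G1/S genes, 34 were above 0, where 51.7% of all genes were. Of the 40, 5 were higher and 2 lower, and the median was 0.22 beside -0.76 in H1299 and -0.19 in A549. With log2(TPM + 1) 2 were higher and 0 lower. Cyclin E2, CCNE2, had 447 and 933 reads, a log2 fold change of 1.14 (0.98 to 1.31), and PCNA, the sliding clamp of DNA polymerase, 8388 and 13186 (0.73). GINS1, a part of the replicative helicase, had 1704 and 2650 reads (0.72), and RFC5, a clamp loader subunit that held a 3′ UTR site, 3898 and 2430 (-0.60). CCNE2, PCNA and RFC5 share exon bases with INTS8, PCNA-AS1 and WSB2. Of 40 mitosis genes, 32 were above 0, with a median of 0.20 beside -0.52 in H1299 and 0.03 in A549. KIF20A, a mitotic kinesin, was the 1 higher member with 6629 and 9618 reads (0.62). That count became 0 with log2(TPM + 1) and with some settings on read counts. CDC25B, a phosphatase that activates cyclin-dependent kinases and held a site, was the 1 lower member with 7210 and 3856 (-0.82). Among 31 p53 targets 3 were higher, TP53INP1 (615 and 1400 reads, 1.27), SESN1 (617 and 1138, 0.96) and BTG2 (560 and 851, 0.68), and 2 lower, while CDKN1A, the classic target, had 3093 and 4032 (0.46).

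Of 37 nuclear genes of oxidative phosphorylation, 34 were above 0 and 0 passed 1.5-fold, with a median of 0.26. Of 15 mitochondrially encoded genes, 14 were below 0 and 0 passed 1.5-fold, with a median of -0.22, where H1299 had 0.32 and A549 0.39. COX1, a subunit of cytochrome oxidase, had 99581 and 69622 reads (-0.44). In glycolysis, 1 of 24 genes was higher, ALDOA with 21464 and 37124 reads (0.87), and 2 were lower, PGAM1 and the hexokinase HK2 with 3017 and 1512 reads (-0.92). HK2 was at -0.90 in H1299 and -0.85 in A549. ALDOA shares exon bases with another gene model and was at -0.18 and -0.07 in those lines. The sterol synthesis genes had 3 higher of 24, MVK (398 and 698 reads, 0.89), HMGCS1 (1520 and 2511, 0.80) and INSIG1 (1807 and 2743, 0.68), and 1 lower, STARD4, which held a site, while with log2(TPM + 1) 1 was higher and 2 were lower. The fatty acid synthesis list had 0 of 15 past 1.5-fold. Of 29 NRF2 targets, HMOX1, heme oxygenase 1, was higher (402 and 766 reads, 1.01), and TALDO1 and UGDH, which makes UDP-glucuronate (17747 and 10017, -0.74), were lower, both with a site.

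Of 38 nuclear speckle and splicing genes 2 were lower, SRRM2 (6879 and 3914 reads, -0.73), a scaffold of speckles, and SRRM1 (2667 and 1552, -0.70), which held a 3′ UTR site. The median of the list was -0.03. Of 19 genes of the small RNA pathway, TNRC6B, an Argonaute partner that held a site, was lower with 4330 and 2590 reads (-0.66). DICER1 (7052 and 9440, 0.50) and AGO2 (5453 and 6665, 0.37) lay within 1.5-fold. Of 10 paraspeckle genes NEAT1 alone was lower by reads, and it went the other way by TPM. Of 23 genes around the MALAT1 locus 1 was higher, SLC25A45 (175 and 260 reads, 0.65), and 5 were lower. The lower ones were NEAT1, TALAM1, CDC42EP2 (676 and 370, -0.79), POLA2 (1640 and 1024, -0.60), which held a site, and SYVN1 (664 and 412, -0.61). With TPM or FPKM 2 of the 23 were lower. The BCL2 family had 2 higher of 15, BMF and the pore-forming BAK1 (836 and 1288 reads, 0.70), and 3 lower, among them the survival factor MCL1 (47298 and 27135, -0.72). MCL1 was at 0.46 in H1299 and 0.55 in A549. The 3 lower members of the family became 1 with TPM or FPKM, and with some settings on read counts. Among 21 epithelial and mesenchymal genes 1 was higher and 4 were lower.

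The remaining lists had few members past 1.5-fold. Cytosolic ribosomal proteins (52 genes, median 0.11, but -0.03 with log2(TPM + 1)) and proteasome subunits (31, median 0.15) had 0. Ribosome biogenesis had NOL6 lower of 40. MHC class I antigen presentation had 1 higher of 20, heat shock 1 of 20, and hypoxia 1 higher, CA9 (101 and 204 reads, 1.09), and 2 lower of 22, HK2 and CA12 (5790 and 3018, -0.86), both CA genes being carbonic anhydrases. Of the 17 genes that the study names, 6 were higher and 9 lower. They were picked on these libraries, so their count is not independent evidence. With TPM or FPKM 2 of them were higher and 7 lower. Among them TBL1XR1, a part of corepressor complexes, had 15418 and 8254 reads (-0.82) and BCAT1, a branched-chain aminotransferase, 6229 and 3554 (-0.73). NAP1L5, a nucleosome assembly protein, had 378 and 831 (1.22). A 3′ UTR site was found in 7 of the 9 lower genes, TBL1XR1 and BCAT1 among them, and in 1 of the 6 higher ones.

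**Figure D4:**
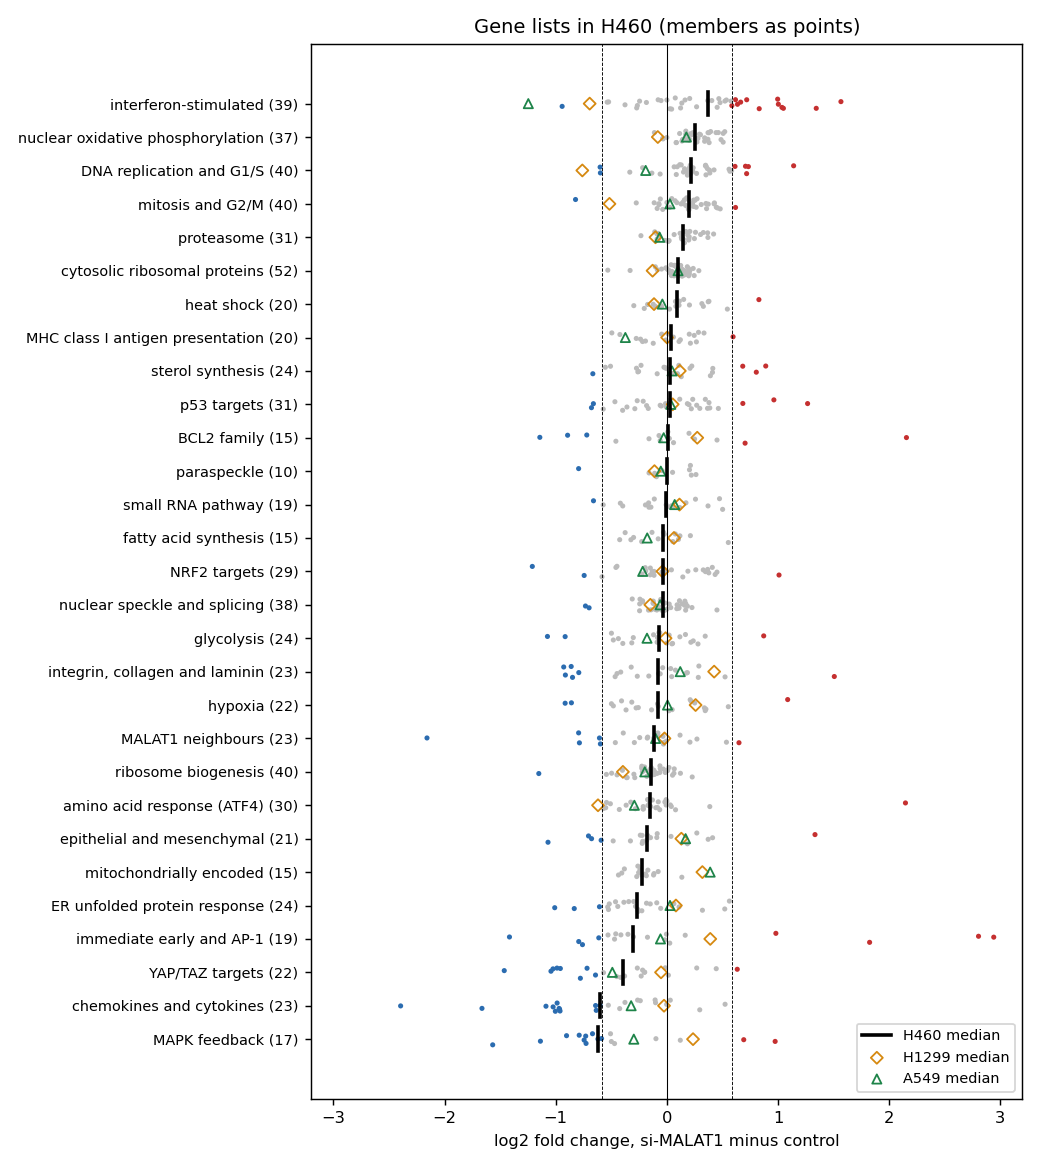
Log2 fold change in H460 (horizontal axis) of each measured member of 29 gene lists, 1 row a list. Points are members, red where at least 1.5-fold higher and blue where at least 1.5-fold lower, the black bar is the H460 median of the list, and the diamond and triangle are the medians of H1299 and A549. The chemokine and MAPK feedback medians lie at -0.60 and -0.62, and the interferon median of 0.37 lies on the other side of 0 from those of H1299 and A549.

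Genes that passed firmly in H460 were in part shared with the other lines. Of the 690 firmly higher genes, 470 were measured in all 3 lines, and 91 of these were also at least 1.5-fold higher in both H1299 and A549, 222 in neither. These are 19.4% and 47.2% of the 470, where 3.46% of all 15739 genes measured in the 3 lines were higher in both other lines and 82.7% in neither. At least 1.5-fold lower in 1 or both of the other lines were 93 of the 470 (19.8%), against 16.5% of all. Of the 713 firmly lower genes, 524 were measured in all 3, 138 were also lower in both other lines (26.3%, against 3.64% of all genes) and 238 in neither (45.4%, against 83.5%), and 81 were at least 1.5-fold higher in 1 or both (15.5%, against 17.3%). The median of the firmly higher genes was 0.262 in H1299 and 0.436 in A549, and that of the firmly lower genes was -0.222 and -0.556. Each line has its own control library, and whether any gene's change differs between the lines was not tested.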

How the data were processed

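Total RNA of H460, H1299 and A549 cells was sequenced after removal of ribosomal RNA, 1 control and 1 si-MALAT1 library a line. Reads were trimmed by the authors, mapped on hg38 using HISAT2 2.1.0, and used to estimate abundance with StringTie (1.3.4b in the submitters' processing notes) on an NCBI annotation. The deposited read counts are whole numbers and not normalized. The deposited FPKM and TPM were scaled by the authors for length and depth and served as alternatives. The kit was stranded, but whether counting used strand is not given in the sources used here. In the same table, 18 value columns are of other samples and were left out.

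Counts of the 6 libraries were scaled with RLE size factors. Log2 fold changes used a pseudocount of 1 and genes with a mean scaled count of at least 10 in the H460 pair. Clopper-Pearson intervals were 95%. H460 libraries held 65067040 to 68515992 reads. With 1 library a side no p-value was computed, and group assignment came from the sample labels. The steps were tested on simulated data.

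The members and lists were chosen with earlier results of these data known. Named genes were MALAT1, TALAM1, NEAT1, list and marker genes, and the 12 protein-coding and 4 other genes in each direction whose interval bound nearest to 0 was farthest from it. A further 15 each way (mean of at least 200, no shared exon, no readthrough) were chosen after the values were seen, and a few of each are described. 3′ UTRs came from canonical GENCODE transcripts (13521 of 13787 protein-coding genes matched), promoters from RefSeq (GRCh38.p14). Alternatives were edgeR 4.0.16 TMM, total count and RLE of the H460 pair, other filters and pseudocounts, TPM and FPKM. Analyses used Python 3.11.15, numpy 2.4.6, pandas 2.3.3, scipy 1.17.1 and R 4.3.3.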

Additional observations from a re-analysis of the deposited data

Results flagged for a closer look

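Several results had opposite signs in H460 and in both other lines. With 1 pair of libraries a line, these differences were not tested, and samples far from their group could not be looked for. Values below are log2 fold changes, with H460 first, then H1299, then A549. The medians of the interferon-stimulated list were 0.369, -0.694 and -1.246. Among its members, IFI27 was at 1.345, -1.383 and -4.089, IFI44 at 0.664, -1.025 and -3.257, MX1 at 1.036, -1.18 and -3.059, and OASL at 1.049, -1.338 and -1.145. The DNA replication and G1/S list had medians of 0.219, -0.76 and -0.19, and the epithelial and mesenchymal list -0.181, 0.131 and 0.169. The mitochondrially encoded list had medians of -0.223, 0.32 and 0.39. LOC107985115, an uncharacterised gene model, had 168 and 630 reads in H460, a log2 fold change of 1.981, and was at -1.572 in H1299 and -1.215 in A549.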

How the results depend on the processing

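No paired analysis was possible because each condition of a line has 1 library and the labels carry no replicate numbers. For the same reason no replicate could be left out. Counts at 1.5-fold, higher and lower, were 959 and 988 with a mean scaled count of at least 50, 4673 and 4426 with no filter, 258 and 831 with log2(TPM + 1), and 374 and 414 with log2(FPKM + 1). At a log2 fold change of 1.5 they were 69 and 52, 2165 and 1930, 13 and 13, and 11 and 8 under the same settings, and 133 and 117 with a pseudocount of 10. Firmly higher genes numbered 430 with a mean of at least 50, and firmly higher and lower ones 1236 and 1107 with no filter. MALAT1 was at -2.35 with TMM, -2.34 with RLE of the H460 pair, -2.44 with TPM and -2.30 with FPKM. The median of the ribosomal protein list turned to -0.031 with TPM, and NEAT1 to 0.34 with TPM and 0.47 with FPKM. The difference in medians between genes with and without a 3′ UTR site, -0.159, stayed between -0.207 and -0.109. With log2(TPM + 1), 21 of 30 list medians moved by 0.1 or more and 1 changed sign, and 26 of 60 list counts moved by over 1.5 times. With log2(FPKM + 1), 6 medians and 17 counts did, and over the 8 settings on read counts 2 medians and 14 counts. Scalings moved the median of all genes by at most 0.083. At means of 10 to 50, counting error limits single genes.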

Other observations

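Histone genes, looked at after their values were seen, were above 0 in H460 for 58 of 58 measured, with a median log2 fold change of 0.591, 30 at least 1.5-fold higher and 0 lower. In H1299 0 of 54 were above 0, 52 were at least 1.5-fold lower and the median was -1.032, and in A549 41 of 57 were above 0 with a median of 0.171. H1-3, a linker histone, had 12817 and 18451 reads in H460 (0.61) and 4718 and 1977 in H1299 (-1.12). Many replication-dependent histone genes are near-identical copies, so single members are uncertain.

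Among the 413 genes with a mean scaled count of at least 20000, 6 were firmly higher and 24 firmly lower in H460, a group looked at after the values were seen. Over all genes measured the shares were 3.74% and 3.87%. The wider set of 2274 genes with a mean of 5000 or more leaned the same way, with 37 firmly higher and 106 firmly lower. CPS1, the first enzyme of the urea cycle, had 139434 and 226092 reads (0.78), and TXNIP, a thioredoxin inhibitor that responds to glucose, 16330 and 32213 (1.06). TFPI2, a protease inhibitor, had 33076 and 15078 reads (-1.05), and NOTCH3, a receptor, 30226 and 16170 (-0.82).

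The 45S ribosomal RNA genes took 1.32% (control) and 0.672% (si-MALAT1) of all H460 reads, 2.78% and 1.70% in H1299, and 0.562% and 0.534% in A549. Ribosomal RNA was removed before sequencing, and the part of that step in these shares was not tested, so no change of the precursor is read from them. Among 7957 protein-coding genes with a mean scaled count of at least 1000, the H460 median went from 0.177 for exon lengths under 1500 bases (608 genes) to -0.07 at 8000 bases or more (1768 genes), and in H1299 from -0.172 to 0.179. Median exon length was 1164 bases in the ribosomal protein list, 1759 in the oxidative phosphorylation list and 6618 in the integrin list. The mitochondrially encoded list (1256 bases, median -0.22) and the chemokine list (2275 bases, median -0.60) were short and below 0. The part of exon length in the list medians was not tested.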
